A study of Mus musculus with 4 samples.

Results

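Collagens and laminins are the main structural proteins of the extracellular matrix, and the genes for their single chains were followed here across the cells of the neonatal mouse forebrain. Members were taken by name: every gene symbol made of Col, a number, a and a number, or of Lam, a letter a, b or c and a digit. The rule used no measured value, and it found 55 of the 32285 genes of the count tables, 44 collagen chains and 11 laminin chains, each with at least 1 UMI (a unique molecular identifier, which marks 1 counted mRNA molecule).

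Single-cell RNA-seq from 3′ ends was made from 4 libraries of forebrain cells at postnatal day 5, 2 of control and 2 of mutant mice. All mice were C57BL/6 and carried Nestin-CreERT2, a tamoxifen-inducible Cre under the promoter of *Nestin*, a gene of neural stem cells, together with a tdTomato reporter of Cre activity, and all had been exposed to tamoxifen in midfetal life. Controls were Chd8+/+ and mutants Chd8+/F, with 1 floxed allele of *Chd8*, which encodes a chromatin remodeler. Each library pooled 3 mice, and tdTomato-positive cells were taken by fluorescence-activated cell sorting. The p-values between genotypes therefore measure the spread between pools. Those between cell types measure how the difference within a pool varied over the pools. The labels call the cells neuronal, but vascular cells, fibroblasts and microglia were also in the sort, and whether those cells carried the deletion was not tested.

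A collagen molecule is a triple helix of chains. Fibrillar collagens (types I, III, V and XI) form the fibers of connective tissue, whereas type IV collagen forms the sheet-like network of basement membranes, the thin matrix layers under endothelial cells and around pericytes. Laminins are cross-shaped trimers of 1 α, 1 β and 1 γ chain that organize the same membranes. In the brain, they line blood vessels, where endothelial cells, pericytes and astrocyte endfeet meet, and the meningeal surface, where fibroblasts and astrocytes meet.

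After filtering, 17623 of 27742 barcodes were kept, 2973 to 5710 per library, with median depths of 11497 to 11837.5 UMIs per cell. Cells over the mitochondrial limit made up 9.38% and 12.3% of the barcodes in the replicate 1 libraries but 44.0% and 37.8% in the replicate 2 libraries of control and mutant, respectively. The replicate number also went with the software named in the file headers, Cell Ranger 7.0.0 for replicate 1 and 5.0.1 for replicate 2, so these cannot be told apart. Any pair of libraries shared 2 to 15 cell barcodes, and none of these had equal UMI totals. *Chd8* was at 61.7 and 89.8 UMIs per 1000000 UMIs (CPM) over all control cells and at 68.7 and 94.9 CPM over all mutant cells (replicates 1 and 2), but the counted 3′ ends lie outside the deleted exons, so this does not check the genotype. Cells were clustered without the 55 chains and named from marker genes. These names were rebuilt here, so each means cells like that type, and they may differ from those of the study.

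The cell types that carried most of the chains were small. There were 166 endothelial cells (10 and 26 in the control libraries, 62 and 68 in the mutant libraries), 570 pericytes (35 and 194, 82 and 259) and 103 fibroblasts (32 and 18, 25 and 28). Endothelial cells were led by *Cldn5*, *Ctla2a*, *Igfbp7* and *Flt1*, fibroblasts by *Ptgds*, *Dcn*, *Vtn* and *Igf2*, and pericytes by *Acta2*, *Rgs5* and *Tagln* in one cluster and *Rgs5*, *Vtn* and *Higd1b* in the other. The 12 fibroblast markers summed to 603 to 1102 CPM in endothelial cells, where 7 of them, *Dcn* and *Lum* included, had no UMI. Erythrocyte markers summed to 15.5 to 19036 CPM in the endothelial cells of the 4 libraries, and pericyte markers to 160 to 3257 CPM, highest in control replicate 2. Pericyte markers in fibroblasts summed to 1365 to 5025 CPM, again highest in control replicate 2. Astrocyte markers in fibroblasts summed to 2000 to 2418 CPM, against 10585 to 11617 CPM in astrocytes. Border macrophage markers summed to 3262 to 4854 CPM in the cells named microglia, so values given for microglia cover both kinds of cell. Removing the cells with the highest doublet scores and clustering again left 55 cells named fibroblasts. These were 23 and 9 in the control libraries and 15 and 8 in the mutant libraries.

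*Col4a1* and *Col4a2* encode the chains of the common type IV collagen and had the highest CPM of type IV chains in endothelial cells, pericytes and fibroblasts. In the mm10 assembly (GRCm38), *Col4a1* lies at chr8:11198423-11312826 on the minus strand and *Col4a2* at chr8:11312805-11449287 on the plus strand, so that they are transcribed away from each other and their ends overlap by 22 bases. Across the 12 cell types with at least 5 cells in every library, their mean CPM followed the same order almost exactly (Spearman's rho = 0.993, a description over types from the same libraries). As the genes share a start region, both promoter windows from RefSeq (GRCm38.p6), 250 bases before to 50 bases after each start, are shown 5′ to 3′ on the strand of each gene, *Col4a1* at chr8:11312777-11313076 (minus strand) and *Col4a2* at chr8:11312555-11312854 (plus strand). Capitals mark the 78 bases that both windows hold, read from opposite strands.
Col4a1: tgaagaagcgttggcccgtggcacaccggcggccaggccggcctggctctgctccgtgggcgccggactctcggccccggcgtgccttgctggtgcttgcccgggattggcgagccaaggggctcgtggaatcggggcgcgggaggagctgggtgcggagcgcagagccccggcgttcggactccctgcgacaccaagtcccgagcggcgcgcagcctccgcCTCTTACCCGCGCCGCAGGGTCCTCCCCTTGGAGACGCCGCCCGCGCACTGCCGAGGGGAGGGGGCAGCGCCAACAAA
Col4a2: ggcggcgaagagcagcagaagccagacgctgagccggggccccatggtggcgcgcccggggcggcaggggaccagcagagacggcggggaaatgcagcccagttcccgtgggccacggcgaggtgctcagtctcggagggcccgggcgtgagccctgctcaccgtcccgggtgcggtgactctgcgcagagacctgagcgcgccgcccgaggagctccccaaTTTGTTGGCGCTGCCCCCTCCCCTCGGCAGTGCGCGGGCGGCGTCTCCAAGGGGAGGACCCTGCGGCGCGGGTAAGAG
The windows had 74.0% and 73.7% G and C, against a median of 52.7% over all 32851 promoter windows of the table. Motifs were searched on both strands. The TATA box letters TATAAA were in neither window, and were in 13.6% of all windows. The letters CCAAT, in 37.4% of all windows, occurred once in each of these, 145 bases before the *Col4a1* start on the opposite strand and 32 bases before the *Col4a2* start. The GC box letters GGGCGG, in 35.7% of all windows, occurred 9 bases after the *Col4a1* start on the opposite strand. On the *Col4a2* strand they occurred 192 bases before and 7 bases after its start, and on the opposite strand 48 bases before it. The *Col4a1* match and the *Col4a2* match 7 bases after its start are the same bases of the shared stretch, read from opposite strands. Promoter windows were found for 40 of the 55 member symbols, as 44 windows, of which 26 (59.1%) held GGGCGG, 14 CCAAT and 5 TATAAA. A match is a description of letters and not of a bound site.

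The other type IV pairs were also neighbors, but not all followed each other. *Col4a5* and *Col4a6*, which lie on chromosome X with 1308 bases between them and point away from each other, had a rho of 0.888 over the 12 types. By contrast, *Col4a3* and *Col4a4*, with 71 bases between them on chromosome 1, had a rho of −0.189. *Col4a3* was low everywhere, with its highest CPM in endothelial cells (4.84, 17.7, 18.7 and 8.92 CPM; sets of 4 values are ordered as control 1, control 2, mutant 1 and mutant 2 throughout), whereas *Col4a4* was highest in ependymal cells (47.2, 23.7, 39.6 and 39.2 CPM). Other neighbors were *Col6a4* and *Col6a5* (rho = 0.577), *Col6a1* and *Col6a2* (0.550) and *Col6a5* and *Col6a6* (0.524). For *Col3a1* and *Col5a2* rho was 0.403, and for *Col19a1* and *Col9a1* it was −0.077.

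Of the 55 chains, 46 reached a mean of 10 CPM in their highest cell type. That type was fibroblasts for 29 chains, pericytes for 8, ependymal cells for 4, oligodendrocytes for 3, and oligodendrocyte precursor cells (OPCs) and endothelial cells for 1 each. For 30 of the 46, the same type was highest in all 4 libraries. Among the chains below 10 CPM in every type were *Col2a1* and *Col24a1* (fibrillar), *Col10a1* (a network collagen of growing cartilage), *Col6a4* and *Col6a6* (type VI), *Col17a1* (an epidermal transmembrane collagen), *Col20a1* (fibril-associated), and the laminin β chain *Lamb3*. Collagen chains summed to 10394 to 25467 CPM in fibroblasts, 4865 to 8586 CPM in pericytes and 1150 to 3213 CPM in endothelial cells, against 113 to 147 CPM in inhibitory neurons and 61.3 to 103 CPM in microglia. In fibroblasts, control replicate 2 stood apart at 25467 CPM, while the other 3 libraries had 10394 to 12004 CPM. Laminin chains summed to 1140 to 2022 CPM in pericytes, 854 to 2619 CPM in fibroblasts, 603 to 1005 CPM in endothelial cells and 154 to 249 CPM in astrocytes. Pericytes, 570 cells, held 29.7% of all collagen UMIs and 22.9% of all laminin UMIs, and astrocytes, 5054 cells, held 19.7% and 32.8%.

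**Figure D1:**
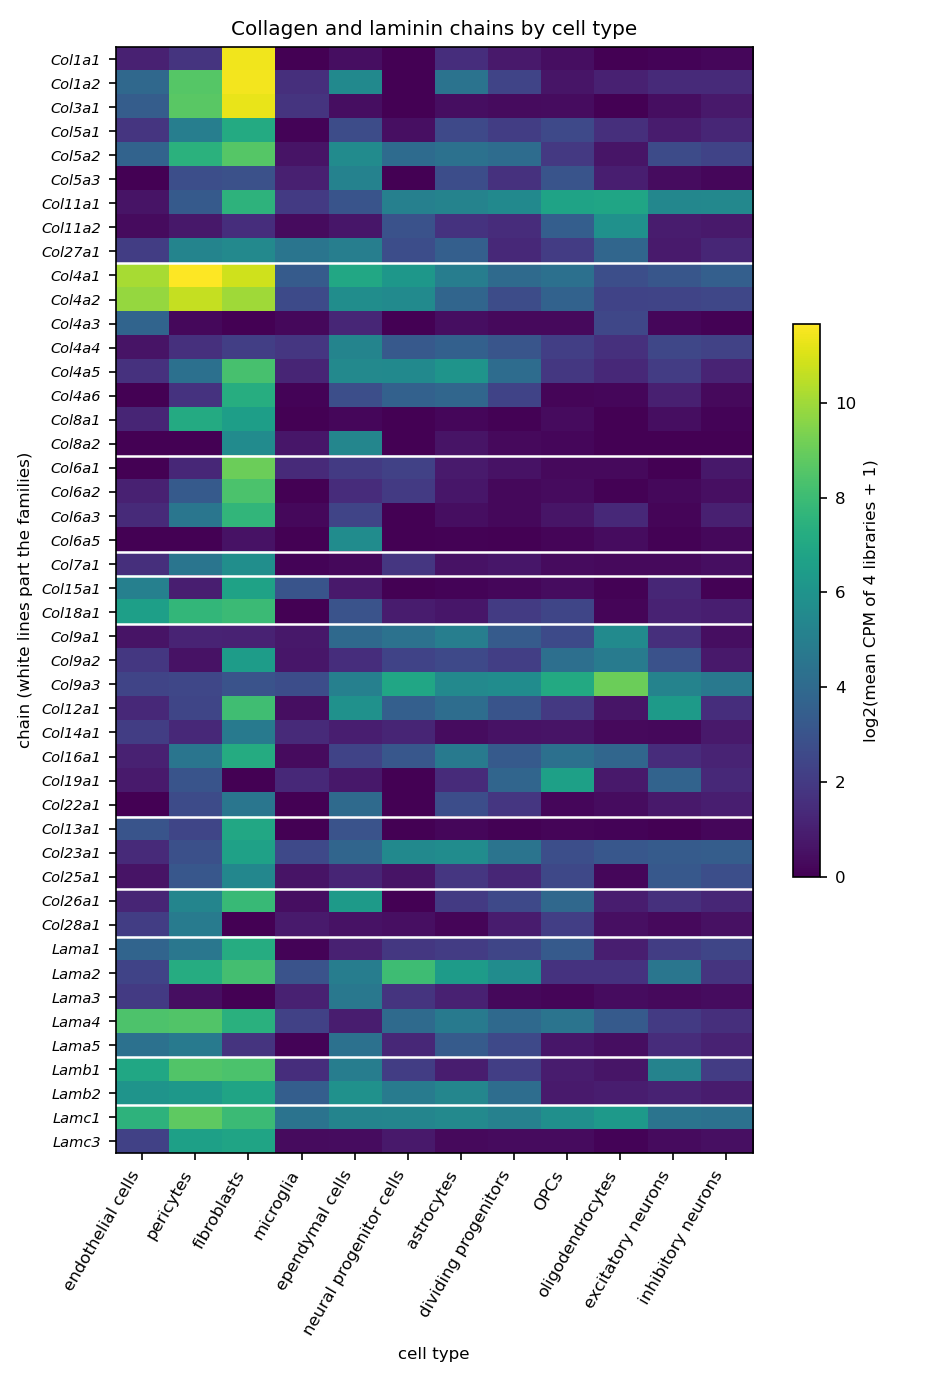
Heat map of the 46 chains with a mean of at least 10 CPM in some cell type (rows, grouped by family) over 12 cell types (columns); color is log2 of the mean CPM of the 4 libraries plus 1. Fibroblasts were highest for 29 rows, and *Col9a3* in oligodendrocytes, *Col19a1* in OPCs and *Col6a5* in ependymal cells stand out among neural types.

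*Col4a1* and *Col4a2* had their highest mean CPM in pericytes. *Col4a1* was at 2433, 4352, 2436 and 3850 CPM in pericytes, at 1563, 1624, 543 and 859 CPM in endothelial cells, and at 823, 4527, 541 and 1500 CPM in fibroblasts. *Col4a2* was at 1002, 2338, 1160 and 1862 CPM in pericytes, at 1040, 1316, 442 and 781 CPM in endothelial cells and at 405, 2577, 287 and 883 CPM in fibroblasts. Pericytes were above endothelial cells in 4 of 4 libraries for *Col4a1* and in 3 of 4 for *Col4a2*, and the fibroblasts of control replicate 2 stood apart from those of the other 3 libraries. When every cell was thinned to 2000 UMIs, 98.6% of pericytes, 67.5% of endothelial cells and 59.8% of fibroblasts had a *Col4a1* UMI (99.6%, 92.8% and 86.4% before thinning). In inhibitory neurons, which should lack the gene, the share was 1.77% (5.12% before thinning), with a median depth of 6435 UMIs against 9814 in pericytes and 12471 in endothelial cells. *Col4a5* and *Col4a6*, in contrast, had their highest mean CPM in fibroblasts (306, 546, 200 and 183 CPM for *Col4a5* and 156, 285, 89.4 and 88.6 CPM for *Col4a6*). Astrocytes came next for both, with means of 64.7 CPM for *Col4a5* and 13.5 CPM for *Col4a6*.

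*Col1a1*, *Col1a2* and *Col3a1* were highest in fibroblasts. *Col1a1*, a chain of type I collagen, was at 2524, 3929, 2524 and 2056 CPM in fibroblasts and at 0, 2.42, 1.12 and 5.91 CPM in pericytes. *Col1a2*, which encodes its partner chain, was at 2543, 4627, 2014 and 2283 CPM in fibroblasts but still at 390, 432, 295 and 415 CPM in pericytes. The type I chains thus did not go together in pericytes, where *Col1a2* exceeded *Col1a1* in all 4 libraries. *Col3a1*, the chain of type III collagen, was at 2400, 3801, 1757 and 2000 CPM in fibroblasts and at 354, 481, 281 and 537 CPM in pericytes. In endothelial cells, *Col1a2* (0, 46.5, 2.08 and 8.92 CPM) and *Col3a1* (0, 31.0, 0 and 8.92 CPM) were low and highest in control replicate 2, where pericyte markers in these cells were also highest. Counts of 0 among endothelial cells leave room for up to 14.5 CPM (control replicate 1) or 3.12 CPM (mutant replicate 1), which 3 counts would give, and cover counting error only.

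**Figure D2:**
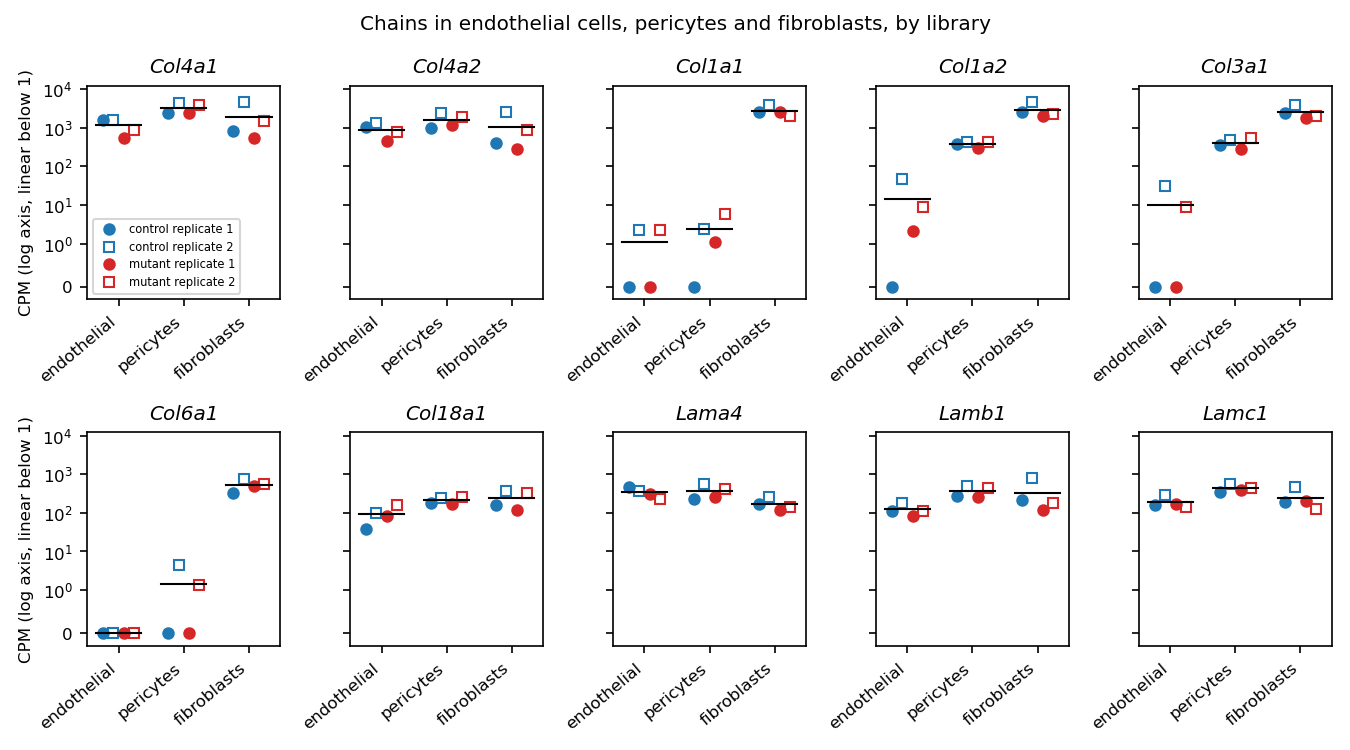
CPM (log axis, linear below 1) of 10 chains in endothelial cells, pericytes and fibroblasts, with 1 point per library and a line at the mean of the 4 libraries; circles are replicate 1, squares replicate 2, blue control and red mutant. *Col1a1* and *Col6a1* are near 0 outside fibroblasts, whereas *Col4a1* and *Lama4* are present in all these types.

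Endothelial cells were compared with pericytes on UMI sums per library with edgeR's quasi-likelihood test and the library as a block. Of 21 chains tested, none was higher in endothelial cells and 17 were lower at an adjusted p under 0.05, while 18.6% of all genes tested were higher, 22.4% lower and 41.0% either. None was higher at an unadjusted p under 0.05 either. DESeq2 called 2 higher, for which the share of all genes called is not given. The median log2 difference was −2.70 over the 21 chains and −0.07 over all genes. The largest differences were for chains that endothelial cells hardly had, *Col3a1* (log2 difference −5.28 ± 0.40 SE, adjusted p = 8.3e-07), *Col8a1* (−5.03 ± 0.32), *Col1a2* (−4.70 ± 0.40), *Lama2* (−4.57 ± 0.27) and *Lamc3* (−4.33 ± 0.31). The further fibrillar chains *Col5a2* (−3.52 ± 0.19), *Col5a1* (−2.70 ± 0.34) and *Col27a1* (−3.11 ± 0.33), *Col26a1* (−3.52 ± 0.37) and the type VI chain *Col6a3* (−3.05 ± 0.49) were also lower. The basement membrane chains differed less: *Col4a1* by −1.59 ± 0.21 (adjusted p = 9.1e-05), *Lamb1* by −1.58 ± 0.15, *Lamc1* by −1.22 ± 0.14, *Col18a1*, the multiplexin whose C-terminal fragment is endostatin, by −1.06 ± 0.18, and *Col4a2* by −0.86 ± 0.20 (adjusted p = 0.0041).

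*Lama4*, the α chain of vascular laminin, was the exception among the abundant chains. It was at 460, 376, 313 and 232 CPM in endothelial cells and at 232, 541, 257 and 416 CPM in pericytes. The log2 difference was −0.07 ± 0.24 (adjusted p = 0.86). Its direction followed the replicate number: 0.69 for the replicate 1 libraries alone and −0.60 for the replicate 2 libraries alone, where it passed the threshold. *Lama5* (−0.10 ± 0.32), *Lamb2* (−0.25 ± 0.19) and *Lama1* (−0.59 ± 0.40) did not pass the test either. *Lama5*, the other vascular α chain, was at 19.4, 17.7, 27.0 and 13.4 CPM in endothelial cells.

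Fibroblasts were then compared with pericytes. Of 30 chains tested, 20 were higher and 4 lower in fibroblasts, where 13.8% of all genes tested were higher, 13.3% lower and 27.1% either. The median log2 difference was 2.48 over the chains and −0.01 over all genes. All 3 tested type VI chains, which form beaded filaments around cells, were higher, *Col6a1* by 7.26 ± 0.31, *Col6a2* by 4.87 ± 0.41 and *Col6a3* by 3.04 ± 0.29. Of 7 fibrillar chains, 6 were higher: *Col1a1* by 9.06 ± 0.37 (adjusted p = 4.1e-07), *Col11a1* by 4.02 ± 0.29, *Col1a2* by 2.90 ± 0.18, *Col3a1* by 2.63 ± 0.19, *Col5a1* by 2.09 ± 0.21 and *Col5a2* by 1.15 ± 0.16. The remaining fibrillar chain, *Col27a1*, differed by 0.23 ± 0.29.

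Type IV chains split in this comparison. *Col4a6* (5.14 ± 0.27) and *Col4a5* (3.92 ± 0.23) were higher in fibroblasts, whereas *Col4a1* (−1.19 ± 0.29, adjusted p = 0.011) and *Col4a2* (−0.98 ± 0.27, adjusted p = 0.023) were lower. The lower calls were less firm than the higher ones, and none of the 4 passed without the library block. Without mutant replicate 2, 1 of them passed, and the *Col4a2* call was also lost without control replicate 1 or mutant replicate 1 (−0.91 and −0.70). In control replicate 2, *Col4a1* was as high in fibroblasts as in pericytes (4527 and 4352 CPM). Of the laminin chains, *Lama1* (2.45 ± 0.29), *Lama2* (0.90 ± 0.23) and *Lamb2* (0.62 ± 0.19) were higher in fibroblasts, and *Lama4* (−0.98 ± 0.18) and *Lamc1* (−0.87 ± 0.22) lower. *Lamb1* (−0.40 ± 0.28), *Lamc3* (0.08 ± 0.38) and *Col18a1* (0.18 ± 0.20) did not pass. The fibril-associated chains *Col12a1* (5.73 ± 0.36) and *Col9a2* (4.96 ± 0.30) and the transmembrane chain *Col13a1* (4.41 ± 0.23) had the largest differences outside these families.

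**Figure D3:**
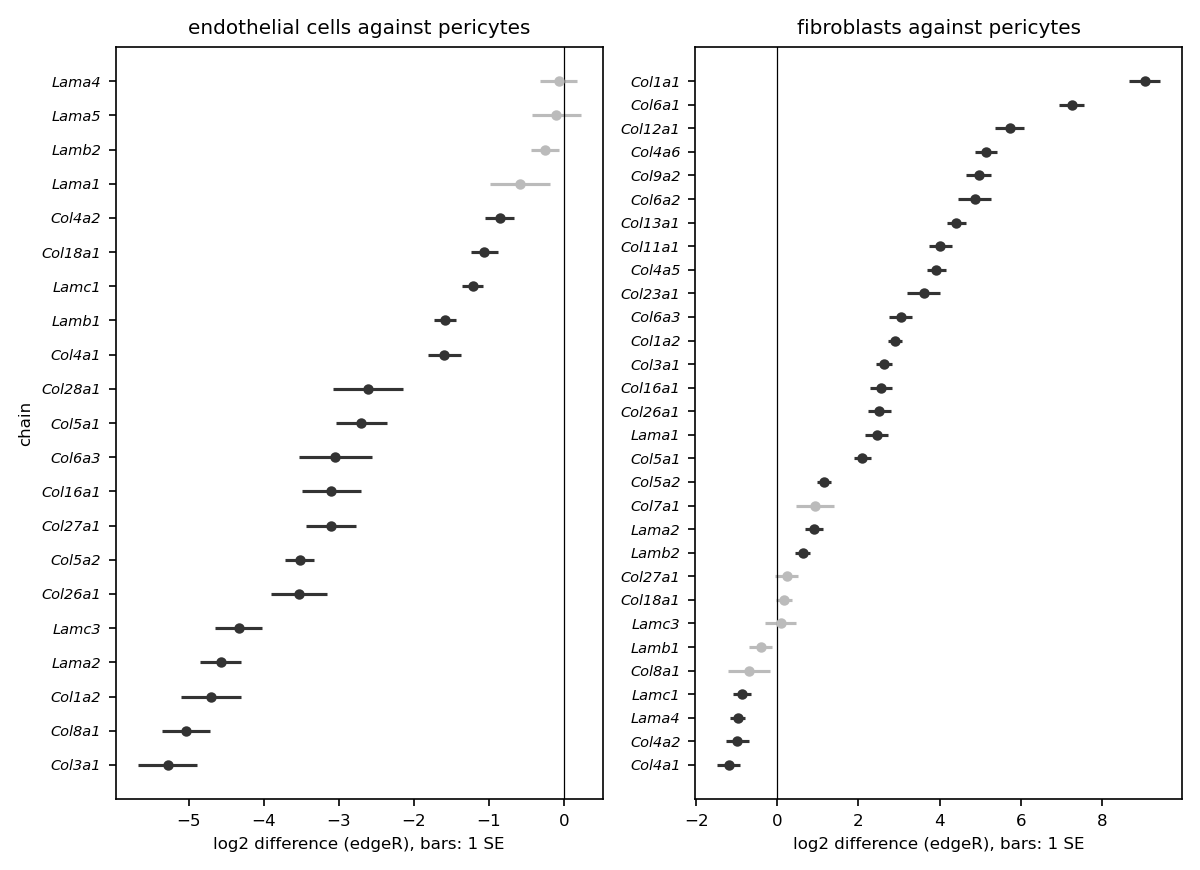
log2 difference between cell types (x axis, edgeR, bars 1 SE) for each chain tested (y axis); dark points passed an adjusted p under 0.05 and gray points did not. All 17 dark points of the left panel are below 0, and in the right panel 20 are above and 4 below 0.

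Against endothelial cells, 24 of 29 chains tested were higher in fibroblasts and 1 was lower, where 17.4% of all genes tested were higher, 17.4% lower and 34.7% either. The median difference was 4.21 over the chains and 0.01 over all genes. *Col1a1* (9.02 ± 0.30), *Col3a1* (7.59 ± 0.43) and *Col1a2* (7.47 ± 0.40) differed most among chains detected in both types. *Col6a1* was at 335, 754, 492 and 552 CPM in fibroblasts and had no UMI in any library of endothelial cells, so it was at least 409-fold higher in fibroblasts (3 counts over the group). *Col4a6* had no UMI there either and was at least 117-fold higher in fibroblasts, and with both at these bounds the median over the chains stayed at 4.21. The chain lower in fibroblasts was *Lama4* (−0.98 ± 0.21, adjusted p = 0.0025). It did not pass after doublet removal (−0.40) or for the replicate 2 libraries alone (−0.57). Doublet removal left 4 endothelial cells in control replicate 1, under the minimum of 5, so this library was also missing from that fit. *Col4a1* (0.39 ± 0.32), *Col4a2* (−0.15 ± 0.31), *Lamc1* (0.31 ± 0.19) and *Col15a1* (1.59 ± 0.77), the other multiplexin, did not pass the test, while *Col18a1* (1.26 ± 0.24), *Lamb1* (1.11 ± 0.25) and *Lamb2* (0.84 ± 0.23) did. The remaining listed chains were also higher in fibroblasts: *Col4a5* by 5.44 ± 0.28, *Col6a2* by 6.25 ± 0.34, *Col6a3* by 5.20 ± 0.34, *Lama2* by 4.95 ± 0.28, *Lamc3* by 3.70 ± 0.29, *Lama1* by 2.77 ± 0.51, *Col5a2* by 4.45 ± 0.25 and *Col5a1* by 4.21 ± 0.29. Outside these families, *Col12a1* (5.59 ± 0.37), *Col11a1* (5.53 ± 0.33) and *Col26a1* (5.17 ± 0.34) differed most.

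The pericytes fell into 2 clusters that differed in their chains. The cluster led by *Acta2* and *Tagln*, contractile genes of smooth muscle, held 207 cells (32, 52, 74 and 49), and the other held 363 (3, 142, 8 and 210), so that replicate 1 pericytes were mostly of the first cluster and replicate 2 pericytes mostly of the second. *Col8a1*, a short-chain network collagen of vessel walls, was at 219, 562, 99.2 and 325 CPM in the *Acta2*-high cluster and at 68.0 (2 UMIs), 9.07, 0 and 12.1 CPM in the other. *Lama5* was at 54.0, 77, 16.1 and 65.7 CPM in the first and at 0, 1.40, 0 and 1.79 CPM in the second. Both were higher in the *Acta2*-high cluster in all 4 libraries, without overlap between the clusters, although the second cluster had few cells in replicate 1. These values describe clusters of the same cells and were not tested.

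Other genes of the pathway were counted from 4 lists of 57 genes: enzymes and chaperones that process collagen, basement membrane partners, receptors and turnover genes. Between fibroblasts and pericytes, 22 of 41 tested were higher and 8 lower in fibroblasts, where 13.8% and 13.3% of all genes tested were. The higher ones included *Lox* (log2 difference 3.26), which cross-links collagen, *Adamts2* (3.01), which trims its N-terminal end, and the gelatinase *Mmp2* (2.41). Of the 8 lower genes, 5 were matrix receptors, with the laminin receptors *Itga7* (−4.47) and *Bcam* (−3.83) and the collagen receptor *Itga1* (−3.69) at the far end. Between endothelial cells and pericytes, 6 of 36 were higher in endothelial cells and 21 lower, where 18.6% and 22.4% of all genes tested were. The 6 higher genes, a count near that share, included the partners *Fn1* (2.26), *Hspg2* (1.87), which encodes perlecan, and *Nid2* (1.11). Between fibroblasts and endothelial cells, 24 of 38 were higher and 8 lower in fibroblasts, where 17.4% and 17.4% of all genes tested were.

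Oligodendrocytes had the highest CPM of *Col9a3*, a fibril-associated chain of type IX collagen. It was at 474, 554, 392 and 727 CPM in oligodendrocytes, 115, 138, 113 and 171 CPM in OPCs and 110, 140, 102 and 123 CPM in neural progenitor cells. *Col9a3* was at 17.6 to 34.2 CPM in inhibitory neurons and at most at 8.34 CPM in pericytes. In oligodendrocytes its CPM over all cells was 70.2 times that of the highest of endothelial cells, pericytes and fibroblasts. After thinning, 53.3% of oligodendrocytes and 0.837% of endothelial cells had a *Col9a3* UMI (91.5% and 6.63% before thinning, at median depths of 17699 and 12471 UMIs). *Col9a1*, its partner chain, was at 38.6, 52.6, 53.9 and 41.4 CPM in oligodendrocytes and at 29.4, 30.8, 29.9 and 33.1 CPM in astrocytes, and *Col11a2*, a fibrillar chain of cartilage, was at 43.5, 60.1, 45.5 and 89.0 CPM in oligodendrocytes and at 6.95, 11.9, 11.5 and 11.1 CPM in OPCs.

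OPCs and ependymal cells each had chains that were low in most other types. *Col19a1*, a fibril-associated chain, was at 147, 41.5, 173 and 30.9 CPM in OPCs, which held 71.0% of its UMIs, and at most at 3.84 CPM in astrocytes. The OPC cluster led by *Pdgfra*, *Lhfpl3* and *Sgcz* (1268 cells) had 225, 69.5, 244 and 61.0 CPM of it. Another OPC cluster, led by *Lhfpl3*, *Cntn1* and *Pdgfra* (825 cells), had only 2.34, 0.836, 12.2 and 2.56 CPM. The dividing cluster led by *Pdgfra* and *Lhfpl3* had more, 95.6, 27.0, 122 and 23.3 CPM. An excitatory neuron cluster led by *Neurod1* and *Calb2* had 27.8, 4.70, 27.8 and 4.95 CPM. An inhibitory neuron cluster led by *Galntl6* and *Adarb2* had 38.0, 0, 18.7 and 0 CPM. After thinning, 15.8% of OPCs and 0.270% of astrocytes had a *Col19a1* UMI (28.3% and 1.35% before, at median depths of 8948 and 13471.5 UMIs). Ependymal cells, the ciliated lining of the ventricles, held 98.5% of the UMIs of *Col6a5*, a type VI chain, at 43.1, 49.7, 33.8 and 74.5 CPM, against at most 0.124 CPM in astrocytes at the upper limit of the 95% Poisson interval. *Lama3* was also highest there (39.4, 14.1, 32.4 and 11.2 CPM). *Col8a2* was at 42.0, 38.5, 37.0 and 44.0 CPM in ependymal cells, within the spread of fibroblasts (17.1, 66.4, 80.0 and 29.5 CPM). *Col9a3* was also the chain with the largest ratio to vascular cells in dividing progenitors (37.5, 55.1, 39.3 and 71.1 CPM), neural progenitor cells, excitatory neurons (26.9, 47.6, 25.9 and 46.9 CPM) and inhibitory neurons.

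Astrocytes, whose endfeet border the vascular basement membrane, were compared with excitatory neurons. Of 30 chains tested, 22 were higher in astrocytes and 4 lower, where 34.5% of all genes tested were higher, 33.0% lower and 67.5% either. The median difference was 1.94 over the chains and 0.01 over all genes. *Lamb2*, at 27.0, 50.7, 26.8 and 53.5 CPM in astrocytes, was higher by 4.86 ± 0.23 (adjusted p = 1.2e-07), whereas its relative *Lamb1*, at 20.5, 54.5, 24.5 and 47.6 CPM in excitatory neurons and at most 1.47 CPM in astrocytes, was lower by 4.92 ± 0.19 (adjusted p = 3.4e-08). The 2 laminin β chains thus went opposite ways between these cells in all 4 libraries. Type IV chains were higher in astrocytes, *Col4a5* by 4.17 ± 0.17, *Col4a6* by 3.46 ± 0.32, *Col4a1* by 1.81 ± 0.25, *Col4a2* by 1.41 ± 0.31 and *Col4a4* by 1.26 ± 0.24. *Col1a2* (3.56 ± 0.30), *Col5a1* (2.15 ± 0.42) and *Col5a2* (1.88 ± 0.20), the laminin chains *Lama4* (2.85 ± 0.29), *Lama5* (2.21 ± 0.26), *Lama2* (2.0 ± 0.14) and *Lamc1* (1.04 ± 0.20), and *Col2a1* (3.89 ± 0.54), *Col9a1* (3.79 ± 0.35) and *Col16a1* (3.60 ± 0.29) were higher as well. *Lama1* (0.08 ± 0.34) did not pass the test. The other chains lower in astrocytes were *Col19a1* (−2.59 ± 0.29), *Col12a1* (−2.04 ± 0.18) and *Col25a1* (−1.82 ± 0.44), the last a transmembrane collagen. Fibroblasts had the highest mean of *Col25a1* (41.5 CPM, highest in 3 of 4 libraries), with excitatory neurons next (8.24 CPM).

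Excitatory neurons were also set against inhibitory neurons, where 13 chains were tested. None was higher in inhibitory neurons and 5 were lower, against 19.1% of all genes higher, 22.4% lower and 41.5% either. None was higher at an unadjusted p under 0.05 or by DESeq2. Medians were −0.37 over the chains and 0.00 over all genes. The 5 were *Col12a1* (−4.69 ± 0.20, adjusted p = 1.7e-07), *Lamb1* (−2.99 ± 0.22), *Col9a2* (−2.55 ± 0.26), *Col19a1* (−2.53 ± 0.27) and *Col9a3* (−0.52 ± 0.11, adjusted p = 0.0046). *Col12a1*, at 47.6, 106, 65.9 and 102 CPM in excitatory neurons, did not exceed 2.41 CPM in inhibitory neurons in any library. The chains *Col4a1* (0.21 ± 0.28), *Col4a2* (−0.35 ± 0.39), *Col4a4* (−0.37 ± 0.27), *Col5a2* (−0.41 ± 0.25) and *Lamc1* (−0.02 ± 0.19) did not pass. Inhibitory neurons had *Col11a1* (52.3, 41.0, 49.1 and 25.8 CPM) and *Col23a1* (17.3, 7.84, 13 and 1.68 CPM) as their further named chains, and microglia *Col27a1* (25, 31.7, 19.7 and 12.3 CPM) and *Lamc1* (17.1, 22.2, 29.5 and 14.7 CPM).

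Most basement membrane chains were lower in OPCs than in astrocytes. Of 33 chains tested, 10 were higher in OPCs and 17 lower, where 34.8% of all genes tested were higher, 33.2% lower and 68.0% either. The medians were −0.42 over the chains and 0.02 over all genes. *Col4a6* (−5.67 ± 0.30), *Lamb2* (−5.59 ± 0.21), *Lama2* (−5.47 ± 0.27), *Col1a2* (−4.75 ± 0.24) and *Col4a5* (−4.72 ± 0.12, adjusted p = 1.7e-09) were lower by the most, with *Lama5* (−3.41 ± 0.29), *Col5a2* (−3.00 ± 0.15), *Col4a4* (−1.75 ± 0.19), *Col4a1* (−0.80 ± 0.11) and *Lama4* (−0.42 ± 0.16) after them. *Col22a1* (−4.06 ± 0.45), *Col2a1* (−3.71 ± 0.24) and *Col23a1* (−2.91 ± 0.36) completed the largest decreases. The chains higher in OPCs were led by *Col19a1* (5.52 ± 0.18, adjusted p = 4.3e-09), *Col28a1* (3.54 ± 0.35) and *Col24a1* (2.64 ± 0.27), and included *Col18a1* (2.52 ± 0.30), *Col9a3* (1.42 ± 0.06), *Col11a1* (1.40 ± 0.06) and *Lama1* (1.27 ± 0.18). *Col28a1* and *Col24a1* were low in OPCs, with means of 3.54 and 2.95 CPM, and *Col28a1* was highest in pericytes (28.3 CPM). *Col4a2* (−0.27 ± 0.14), *Col5a1* (−0.17 ± 0.17), *Lamb1* (0.05 ± 0.37) and *Lamc1* (0.14 ± 0.09) did not pass the test.

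The pathway lists differed in the same comparisons. In astrocytes against excitatory neurons, 33 of 50 tested genes were higher and 4 lower, where 34.5% and 33% of all genes tested were. Among the higher ones were *Sparc* (4.60), *Nid1* (3.93), which links laminin to type IV collagen, and the collagen chaperone *Serpinh1* (2.94). In OPCs against astrocytes, 6 of 48 were higher and 31 lower, where 34.8% and 33.2% of all genes tested were. The laminin receptor subunit *Itga6* (−5.16) and *Nid1* (−4.15) were among the lower ones. In inhibitory against excitatory neurons, 6 of 25 were higher and 11 lower, where 19.1% and 22.4% of all genes were.

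*Lama2*, the α chain of the laminin that is lost in merosin-deficient muscular dystrophy, differed between the replicate numbers in several neural types. It was at 144, 27.9, 141 and 18.0 CPM in astrocytes, at 430, 84.3, 503 and 41.0 CPM in neural progenitor cells and at 33.0, 6.05, 48.0 and 3.97 CPM in excitatory neurons. In pericytes it was at 139, 167, 165 and 117 CPM, and in fibroblasts at 356, 437, 240 and 118 CPM. Replicate 2 was thus lower than replicate 1 in these neural types in both genotypes (log2 ratio of CPM −2.37 and −2.98 in astrocytes, −2.35 and −3.62 in neural progenitor cells and −2.45 and −3.60 in excitatory neurons, control and mutant). In pericytes (0.27 and −0.49) and fibroblasts (0.30 and −1.02) it was lower in the mutant only, and by less. The *Acta2*-high pericytes had 136, 138, 158 and 82.9 CPM. In OPCs the ratio was −1.28 in control and 0.21 in mutant libraries. Over all cells, 4 of the 47 chains with at least 100 UMIs in some type were lower by more than 1 log2 in replicate 2 in both genotypes (*Lama2*, *Col19a1*, *Lama3* and *Col20a1*), and 14 were higher. The share of all genes that shifted in this way was not computed, so these counts do not set the chains apart. The 14 included *Col4a1*, *Col4a2* and *Lamb1*. Pericytes made up 0.613% and 1.45% of replicate 1 cells and 6.53% and 7.89% of replicate 2 cells. Within pericytes these chains were also higher in replicate 2 (log2 ratios 0.84 and 0.66, 1.22 and 0.68, and 0.86 and 0.79, control and mutant). The part of the cell mix in these shifts was not tested.

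The same was seen for *Col19a1* in OPCs (log2 ratios −1.82 and −2.48), and the opposite for *Lamb2* in astrocytes (0.91 and 1.0). *Lama2*, at chr10:26980036-27619758, spans 639723 bases, of which 623385 are outside exons, and *Col19a1* has 318696 bases outside exons, whereas *Lamb2* has 4713. Over all cells, *Col4a6* (300701 bases outside exons) had log2 ratios of 0.05 and −0.42, and *Col23a1* (288263) of 0.03 and 0.37. *Lama3* (238450) had −1.12 and −1.36, and *Col20a1*, with only 26687 such bases, had −2.22 and −1.88. The part of the software version in these shifts was not tested. Within the neural cells, *Lama2* was high in the dividing cluster led by *Tac2*, *Igfbpl1*, *Eomes* and *Neurod1*, genes of excitatory intermediate progenitors (351, 43.6, 329 and 44.3 CPM), and in the astrocyte cluster led by *Slco1c1* and *Aldoc* (258, 65.9, 241 and 28.5 CPM). The *Lama2* difference between astrocytes and excitatory neurons given above depended on which cells were named excitatory neurons: with a mitochondrial limit of 5% the cells named excitatory neurons had 168, 27.8, 185 and 19.8 CPM and the log2 difference was −0.068, and it was 0.18 at a finer clustering and 0.31 when the chains were among the clustering genes.

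**Figure D4:**
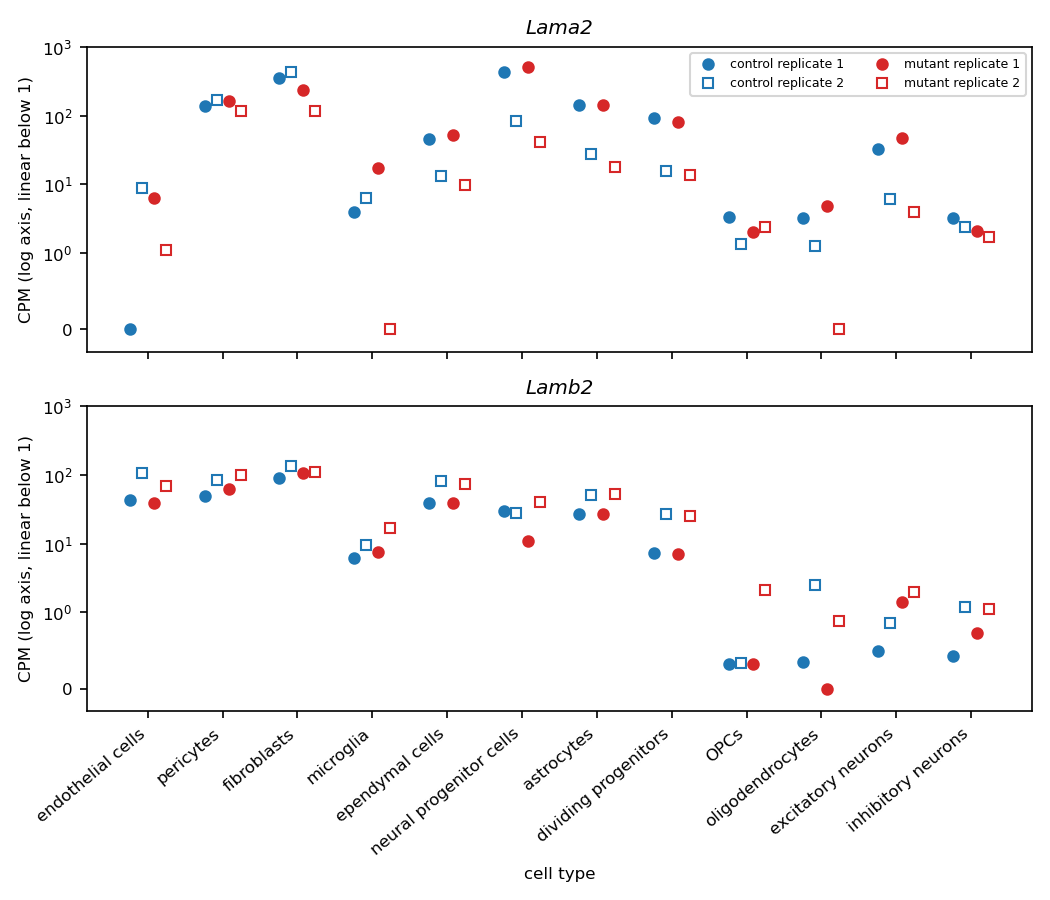
CPM (log axis, linear below 1) of *Lama2* (top) and *Lamb2* (bottom) in 12 cell types, with 1 point per library; circles are replicate 1, squares replicate 2, blue control and red mutant. In astrocytes *Lama2* is lower in both replicate 2 libraries (27.9 and 18.0 CPM) than in both replicate 1 libraries (144 and 141 CPM), and *Lamb2* is higher.

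The comparison of genotypes asked whether losing 1 *Chd8* allele changed these chains within a cell type. No chain passed an adjusted p under 0.05 in any of the 12 cell types by edgeR with the genotype alone in the fit, and 0% of all genes did in each of them. DESeq2 called 0 chains as well. At an unadjusted p under 0.05 there were 3 of 10 chains tested in endothelial cells (1.69% of all genes tested), 2 of 25 in pericytes (0.658%) and 7 of 31 in fibroblasts (3.77%). The other 9 types had 0 (0.0376% to 0.241% of all genes tested). This fit left the difference between replicate numbers in its error, so few calls do not show that the genotypes were alike. Results with the replicate number as a block are given in the last paragraph. In OPCs, astrocytes, dividing progenitors, ependymal cells and neurons the median log2 difference of the chains was between −0.11 and −0.05. It was −0.18 in neural progenitor cells (9 chains), −0.25 in microglia (2 chains) and 0.06 in oligodendrocytes (12 chains).

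In endothelial cells, *Col4a1* was at 1563 and 1624 CPM in control and 543 and 859 CPM in mutant libraries, and *Col4a2* at 1040 and 1316 CPM in control and 442 and 781 CPM in mutant libraries. For both genes the groups did not overlap. The fitted log2 difference of *Col4a1* was −1.19 ± 0.34 (adjusted p = 1.0), and −1.52 and −0.92 within replicates 1 and 2. That of *Col4a2* was −0.96 ± 0.37 (adjusted p = 1.0), and −1.23 and −0.75 within replicates. *Lama1* went the other way, with 0 and 1 UMIs in control and 18 and 26 UMIs in mutant endothelial cells (fitted log2 difference 2.53). These libraries were of unlike depth, with 206711 and 451955 UMIs in control and 961268 and 896553 UMIs in mutant endothelial cells. The 0 in control replicate 1 leaves room for up to 14.5 CPM, which 3 counts would give. *Lama4* was lower without overlap too (460 and 376 against 313 and 232 CPM; −0.61 ± 0.32). In all, 3 of 10 chains were lower and 1 higher in the mutant without overlap, where 10.9% and 14.9% of all genes tested were, and the median log2 difference was −0.56 over the chains and 0.02 over all genes. The median over the chains was −0.02 without control replicate 2, and −0.94 and −0.92 without control replicate 1 and mutant replicate 2. Beside these values stand 10 endothelial cells in control replicate 1, erythrocyte markers at 19036 and 15.5 CPM in the control and 15407 and 8553 CPM in the mutant libraries, and pericyte markers at 160 and 3257 CPM against 225 and 544 CPM. Their part in the result was not tested.

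In fibroblasts, 14 of 31 chains were lower in both mutant libraries than in both control libraries and 0 were higher in both, where 17.3% of all genes tested were lower and 13.8% higher in this way. The median log2 difference was −0.69 over the chains and 0.01 over all genes. Over the chains it was −0.20 without control replicate 2 and −1.13 without control replicate 1. It was −0.60 after doublet removal, which left 55 cells named fibroblasts. *Lamb1* was at 213 and 788 CPM in control and 120 and 180 CPM in mutant libraries (−1.70 ± 0.65, adjusted p = 0.995, and −0.83 and −2.13 within replicates). *Col15a1* was at 38.0 and 313 CPM in control and 9.41 and 53.2 CPM in mutant libraries, so its groups overlapped, but it was lower within each replicate (−2.02 and −2.56; fit −2.31 ± 1.05). *Lamc3* (−1.49 ± 0.62), *Col4a6* (−1.23 ± 0.43), *Lama1* (−1.23 ± 0.46), *Col5a1* (−1.14 ± 0.48), *Col4a5* (−1.11 ± 0.41) and *Lama2* (−1.09 ± 0.43) were lower without overlap, and *Col1a2* (−0.73 ± 0.40), *Col3a1* (−0.71 ± 0.37) and *Col5a2* (−0.75 ± 0.41) by less. *Col1a1* (−0.48 ± 0.37), *Col6a1* (−0.05 ± 0.47), *Col6a2* (0.23 ± 0.46), *Col18a1* (−0.27 ± 0.61) and *Lamb2* (−0.03 ± 0.41) overlapped. *Col4a1* (−1.41 ± 0.83) rested on control replicate 2, without which it was 0.41. Other chains also depended on single libraries. Leaving out 1 library at a time gave −3.59 to −0.20 for *Col15a1* and −2.37 to −0.40 for *Lamb1*. It gave −2.10 to −0.53 for *Lamc3* and −1.73 to −0.68 for *Col5a1*. The lone sample of a genotype is assumed to vary like the other genotype when a library is left out: 4 chains, all lower in the mutant, then passed an adjusted p under 0.05 without control replicate 1, where 34 of 6888 genes did. Without mutant replicate 2, 1 chain was called higher and 4 lower among 70 of 7845 genes, and without control replicate 2 no chain was called. With no filter on low counts, 1 was called higher and 3 lower among 67 of 16101 genes. Control replicate 2 had only 18 fibroblasts, and pericyte markers in fibroblasts were at 2693 and 5025 CPM in the control and at 1365 and 3169 CPM in the mutant libraries, whose part in the result was not tested.

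In pericytes, which had the most cells of these types, most chains tested overlapped between the genotypes. *Col4a1* (−0.17 ± 0.42), *Col4a2* (−0.21 ± 0.51), *Lamb1* (−0.17 ± 0.44), *Lamc1* (−0.20 ± 0.35), *Lama4* (−0.27 ± 0.51), *Col18a1* (−0.04 ± 0.34) and *Col3a1* (−0.08 ± 0.40) all overlapped between genotypes. *Col8a1* was at 208 and 179 CPM in control and 82.9 and 81.7 CPM in mutant pericytes (−1.25 ± 0.25, adjusted p = 1.0), and at −1.33 and −1.13 within replicates. *Lama5* was at 50.2 and 24.6 CPM in control and 13.4 and 16 CPM in mutant pericytes (−1.22 ± 0.43). These are the same chains that were higher in the *Acta2*-high cluster. In that cluster both were also lower in the mutant within each replicate number, but the genotypes overlapped by the values given above. The cluster held 32 of 35 and 52 of 194 control pericytes, and 74 of 82 and 49 of 259 mutant pericytes. The part of this mix in the result was not tested. In all, 3 of 25 chains were lower and 2 higher without overlap, where 8.84% and 14.3% of all genes were, and the median log2 difference was −0.08 against 0.01 over all genes. That median depended on single libraries, with 0.59 without control replicate 2, −0.41 without control replicate 1, 0.16 without mutant replicate 1 and −0.55 without mutant replicate 2.

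**Figure D5:**
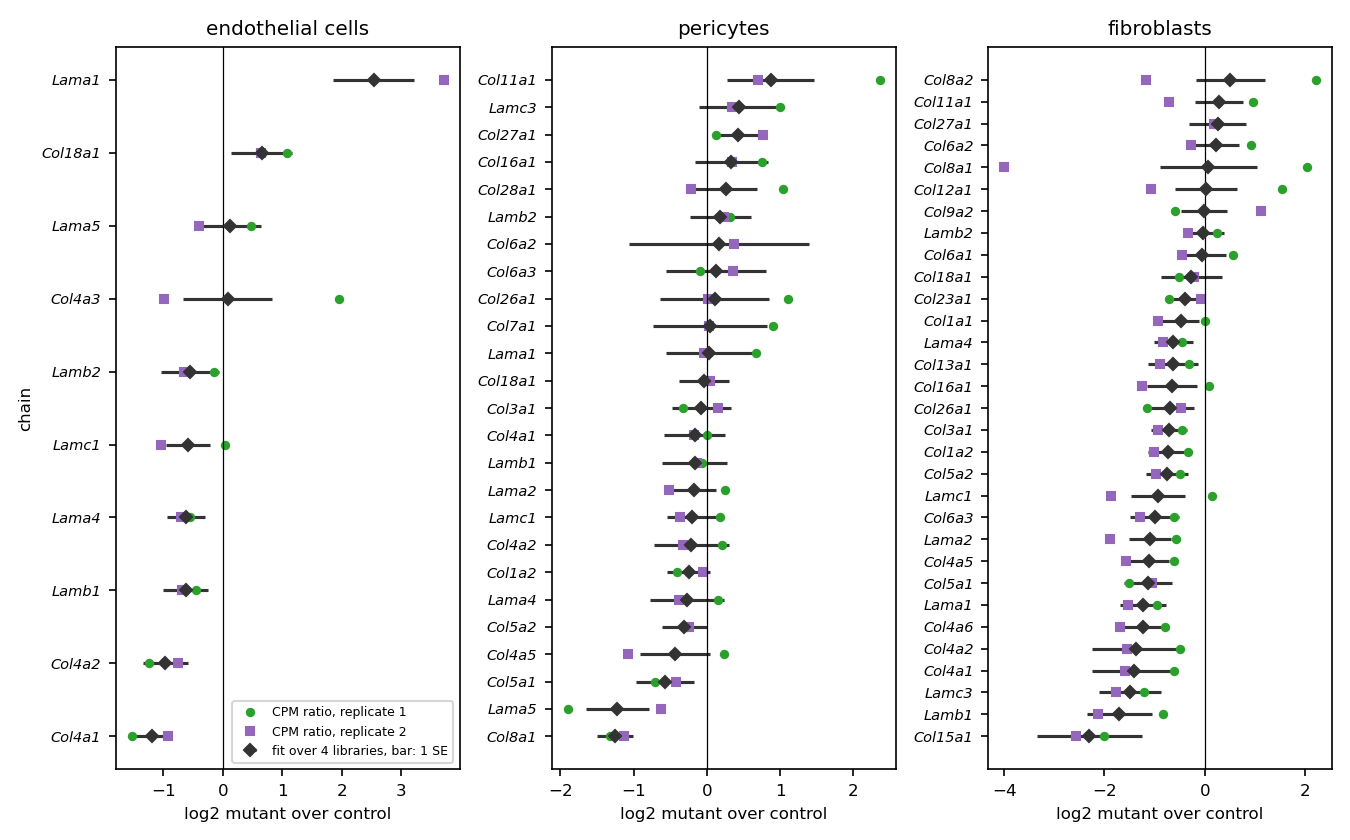
log2 of mutant over control (x axis) for each chain tested (y axis) in endothelial cells, pericytes and fibroblasts; diamonds are the fit over 4 libraries with bars of 1 SE, green circles and purple squares the CPM ratios within replicates 1 and 2. In fibroblasts most diamonds are below 0 (median −0.69), and in pericytes they lie around 0 (median −0.08).

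Whether the genotype difference itself differed between these types was tested as an interaction. Between endothelial cells and pericytes 0 of 26 chains passed, where 0.196% of all genes did, and between fibroblasts and pericytes 0 of 35, where 0.0119% did. At an unadjusted p under 0.05 there were 7 chains in the first (6.25% of all genes) and 12 in the second (8.78%). *Col4a1* in endothelial cells came closest in the first (−1.10 ± 0.26, adjusted p = 0.093) and *Lamc3* in fibroblasts in the second (−2.05 ± 0.37, adjusted p = 0.090). A difference between these types in the effect of the genotype was therefore not called by edgeR for any chain. In the same fit of each cell type with the genotype alone, no gene of the pathway lists was called.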

How the data were processed

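Single-cell RNA-seq from 3′ ends (10x Genomics) was made from 4 libraries, 2 control and 2 mutant, grouped by the labels. The authors aligned reads with Cell Ranger (3.0 and mm10 per the submitters' processing notes, 7.0.0 and 5.0.1 per the file headers) and deposited raw UMI counts per gene and barcode, without normalization. Barcodes were kept (17623 of 27742) if they had between 2000 and 40000 UMIs, 1000 genes or more, and no more than 10% of UMIs from mitochondrial genes. They were scaled within each library over 2000 variable genes without the 55 chains, and clustered with scanpy 1.11.5 (30 components, 15 neighbors, resolution 1) into 30 clusters, of which 1 stayed unnamed. Doublets were not removed in the main analysis; removing the 5% of cells with the highest doublet scores was an alternative. Choroid plexus cells, 25 in all, were not tested. The values of 1 chain are not reported here. The members and gene lists were chosen with earlier results of these data known.

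Counts were summed per library and cell type with at least 5 cells, and given as CPM of that sum. UMIs count mRNA 3′ ends, so CPM was not divided by gene length. edgeR 4.0.16 (R 4.3.3; TMM, filterByExpr, quasi-likelihood test, Benjamini-Hochberg over all genes tested, threshold 0.05) compared cell types with the library as a block, and genotypes without one. Scripts were tested on simulated data. Intervals and limits for 0 counts (3 counts) cover counting error only. Named chains were those of types I, III, IV, V and VI, the multiplexins and the laminins where tested, up to 3 further chains in each direction with the largest change, and, for each neural type, up to 3 with the largest ratio to vascular cells at 10 CPM or more. Gene positions came from GENCODE M21 (GRCm38), which held all 55 gene IDs, and promoters from RefSeq (GRCm38.p6). Alternatives were RLE normalization, no filter on low counts, DESeq2 1.42.0, a mitochondrial limit of 5%, cluster resolution 2, clustering with the chains, doublet removal, no library block, the replicate block, and leaving out each library. The *Acta2*-high pericytes alone and each replicate number alone were added after seeing the data.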

Additional observations from a re-analysis of the deposited data

How the results depend on the processing

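Of 744 log2 differences between cell types recomputed under alternatives, 713 kept their direction and side of the threshold, 24 lost the call, 1 gained it and 6 reversed, and of 129 between genotypes 116 kept both, 12 gained a call and 1 reversed. The reversals were *Lama4* in endothelial cells against pericytes (0.16 at a mitochondrial limit of 5%, 0.17 without control replicate 2, 0.22 without mutant replicate 2, 0.14 for *Acta2*-high pericytes alone and 0.69 for replicate 1 alone), *Lama2* in astrocytes against excitatory neurons (−0.068 at the 5% limit) and *Col4a1* by genotype in fibroblasts (0.41 without control replicate 2). Leaving out 1 library at a time gave −0.30 to 0.22 for the first and −2.30 to 0.41 for the last. The causes were not tested. For the counts of chains between cell types that follow, the shares of all genes called under each setting are not given. Such counts therefore do not set the chains apart from other genes. With no filter on low counts, 2 chains were called higher in endothelial cells than in pericytes and 9 lower in fibroblasts than in pericytes. In that setting 3 were lower in fibroblasts than in endothelial cells, and 1 was higher and 9 lower in inhibitory than in excitatory neurons. By genotype it called 1 in endothelial cells (46 of 16022 genes) and 4 in fibroblasts (67 of 16101). It called 4 in each interaction (112 of 19105 genes for endothelial cells and 94 of 19129 for fibroblasts). Chains at an unadjusted p under 0.05 by genotype were 7 of 41 in endothelial cells (3.06% of all genes), 4 of 49 in pericytes (1.83%) and 15 of 47 in fibroblasts (3.89%). The other types had 2 (0.0604% to 1.42%). DESeq2 called 2 chains higher in endothelial cells than in pericytes and 2 lower in fibroblasts than in endothelial cells. At an unadjusted p by genotype it had 5 of 41 in endothelial cells (0.524% of all genes) and 1 of 49 in pericytes (0.314%). Doublet removal left 2 chains lower in fibroblasts than in pericytes, and 14 higher and 0 lower than in endothelial cells. The comparison with endothelial cells then also lacked control replicate 1, which had too few of them left. By genotype, doublet removal left 2 of 31 chains unadjusted in fibroblasts (1.54% of all genes). Without the library block, 0 chains were lower in fibroblasts than in pericytes and 3 lower in inhibitory than in excitatory neurons, which were 10 at the 5% mitochondrial limit. That limit also gave a mean of 43.2 CPM for *Col12a1* in excitatory neurons. Replicate 1 alone gave 2 chains lower in fibroblasts than in pericytes, 2 lower than in endothelial cells, 8 lower in astrocytes than in excitatory neurons, and 2 higher and 8 lower in inhibitory than in excitatory neurons. Replicate 2 alone gave 1 chain higher in endothelial cells than in pericytes, 0 lower in fibroblasts than in endothelial cells, and 1 higher and 3 lower in inhibitory than in excitatory neurons. Leaving out 1 library at a time gave 1 to 5 chains lower in fibroblasts than in pericytes. By genotype, leaving out 1 library leaves a lone library in a genotype, so counts of calls are not listed here. The median differences without single libraries are given above for endothelial cells, pericytes and fibroblasts.

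The labels state no batch shared by libraries of the same replicate number, but the file headers give these the same software version. Same-numbered libraries deviated together from their genotype means in all 12 cell types (r = 0.385 to 0.897). These correlations run over genes, and genes do not replicate a sample. With the replicate block, 5 chains were called lower in fibroblasts (*Col15a1*, *Lamb1*, *Lamc3*, *Col4a1* and *Col5a1*), where 104 of 6401 genes were called, and at an unadjusted p 15 in fibroblasts (10.5% of all genes there), 5 in endothelial cells (3.70%) and 8 in the other types (1.93% to 5.28%). The ranges of these chains without single libraries, from the fit with the genotype alone, are given above. With that block, 1 of 38 genes of the pathway lists was called lower in fibroblasts. The genotype comparison had no value for fibroblasts at the 5% mitochondrial limit and none for endothelial cells after doublet removal, with 4 cells left in 1 library each. Without thinning, the share of cells with a UMI was 98.6% for *Col4a2* in pericytes, 91.3%, 95.1% and 90.3% for *Col1a1*, *Col3a1* and *Col6a1* in fibroblasts, 45.8% and 68.9% for *Lama2* in astrocytes and pericytes, 32.9% for *Col12a1* in excitatory neurons and 28.8% for *Col6a5* in ependymal cells, and for *Col4a1*, *Col9a3* and *Col19a1* as given above (99.6%, 92.8%, 86.4%, 91.5% and 28.3%).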
